A study of Mus musculus with 12 samples.

Results

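The 9 B cell genes Cd79a, Cd79b, Ms4a1, Cd22, Cr2, Fcer2a, Blk, Pax5 and Ebf1 were taken by name from a table of 37583 genes measured in mouse blood after injury. They filled 10 rows, because Ebf1 was listed under 2 gene IDs, of which ENSMUSG00000078561 had 0 reads in every library and ENSMUSG00000057098 was used. Wild type mice received a burn together with a tenotomy (the cutting of a tendon), an injury used to study bone formation in soft tissue. Whole blood was sorted on the iChip, a microfluidic device that enriches rare cells, and total RNA of the enriched fraction, which the labels call cMPCs (circulating mesenchymal progenitor cells) and blood cells, was sequenced. The 12 libraries form 3 groups of 4, named 6h, Day1 and Day7 after the time since injury, and all carry the same genotype and injury. Strain and age are not stated in the labels, and uninjured mice were not analysed here. The series title asks whether a signature of heterotopic ossification can be read in such blood. The enrichment sets which white cells remain, so a level here is that of the enriched fraction and not of whole blood. Nothing in the labels says that the 4 libraries of a group came from separate animals, and p-values therefore refer only to the spread between these libraries, which may be technical.

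Mature B cells carry an antigen receptor in which a membrane immunoglobulin is paired with the signalling chains Cd79a and Cd79b. Engagement of that receptor activates Src-family kinases such as Blk, and the surface proteins Cd22 and Cr2 lower and raise its signal. Ebf1 and Pax5 are the transcription factors that specify B lineage cells and keep them committed, and both act on genes such as Cd79a. In blood most B cells are naive, resting cells, while plasma cells, which secrete antibody, lose Pax5 and most of the surface proteins named here.

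For all 9 genes, a deposited value is the number of reads of a gene scaled to an effective size of its library, with 1 read worth 0.0314 to 0.617. Libraries held 5098395 to 12379041 reads, of which 16.1% to 70.3% were of haemoglobin genes, and 7631 to 16647 genes had a read. The B cell genes together had 17018 reads in all libraries. As CPM of all reads of a library they took 1.10 (exact Clopper-Pearson 95% interval 0.527 to 2.02) in Day7 replicate 3 to 425 (413 to 437) in Day1 replicate 2. Such intervals cover counting error only. Day7 replicate 3, with 10 reads of these genes, and 6h replicates 2 and 3, with 77 and 95, stood apart as the libraries poorest in them. Y-linked genes had reads in 5 libraries (6h replicates 3 and 4, Day1 replicates 2, 3 and 4) and had none in the other 7, so this split is unevenly mixed with time.

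The 2 promoter windows shown here are those of Cd79a, the gene with the most reads, and of Cd22. Among the genes with a window, only that of Cd22 held an exact match to the core letters searched for EBF. They run from 250 bases before to 50 bases after the start, 5′ to 3′ on the strand of the gene, and come from RefSeq on GRCm38.p6, a later build than the mm9 listed in the submitters' processing notes. Windows were at hand for 6 of the 9 genes. The motifs searched on both strands were CCCNNGGG for EBF, ATGCAAAT for the octamer and GAGGAA for PU.1, and their matches are in capitals. Only exact matches were marked, so a site that departs from these letters is missed. The Cd79a window holds ctcaaggg, which differs from the EBF letters by 1 letter. Such near matches were not searched for in the other windows, and their share over all windows was not counted. The Cd79a window at chr7:24897247-24897546 (plus strand) held 1 match to the PU.1 letters, read on the opposite strand. The Cd22 window at chr7:30878979-30879278 (minus strand) held 1 match to the EBF letters.
Cd79a promoter: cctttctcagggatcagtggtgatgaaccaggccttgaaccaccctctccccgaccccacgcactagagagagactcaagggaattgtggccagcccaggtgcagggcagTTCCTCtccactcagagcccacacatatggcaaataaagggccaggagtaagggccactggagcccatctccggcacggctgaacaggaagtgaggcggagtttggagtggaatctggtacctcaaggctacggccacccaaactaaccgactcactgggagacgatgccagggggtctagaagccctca
Cd22 promoter: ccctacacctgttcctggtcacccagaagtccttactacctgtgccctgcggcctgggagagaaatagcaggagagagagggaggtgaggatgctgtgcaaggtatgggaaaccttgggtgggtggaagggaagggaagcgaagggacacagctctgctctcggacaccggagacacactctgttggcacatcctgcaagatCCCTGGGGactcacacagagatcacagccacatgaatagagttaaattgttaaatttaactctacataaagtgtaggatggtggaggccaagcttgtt
Of 32851 promoter windows of this length, 13.7% held the EBF letters, 28.3% the PU.1 letters and 1.74% the octamer. A match describes the letters in a window and no binding was measured.

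The receptor chains had the highest values of the 9 genes, also per kilobase of gene length. Cd79a, the Ig-alpha chain, had values of 121, 26.1, 4.10 and 58.7 in 6h replicates 1 to 4, 27.8, 65.9, 15.7 and 13.4 in Day1 replicates 1 to 4, and 103, 44.8, 0.617 and 28.6 in Day7 replicates 1 to 4. High and low libraries occurred at each time and the 3 groups overlapped. Cd79b, the Ig-beta chain, had values of 2.24, 0, 6.76 and 73.6 in 6h replicates 1 to 4, 45.7, 51.9, 17.1 and 16.4 in Day1 replicates 1 to 4, and 88.3, 77.9, 4.32 and 80.8 in Day7 replicates 1 to 4. At 6h a single library was high, and at Day1 all 4 were intermediate. As deposited, 3 of 4 Day7 libraries lay above the highest 6h library while Day7 replicate 3 lay among the low ones. Taken as a share of all reads of a library, only Day7 replicate 1 lay above 6h replicate 4. They had 1284 Cd79b reads in 10503804 and 1228 in 12379041, and Day7 replicates 2 and 4 had 407 in 8617538 and 243 in 9089586.

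**Figure D1:**
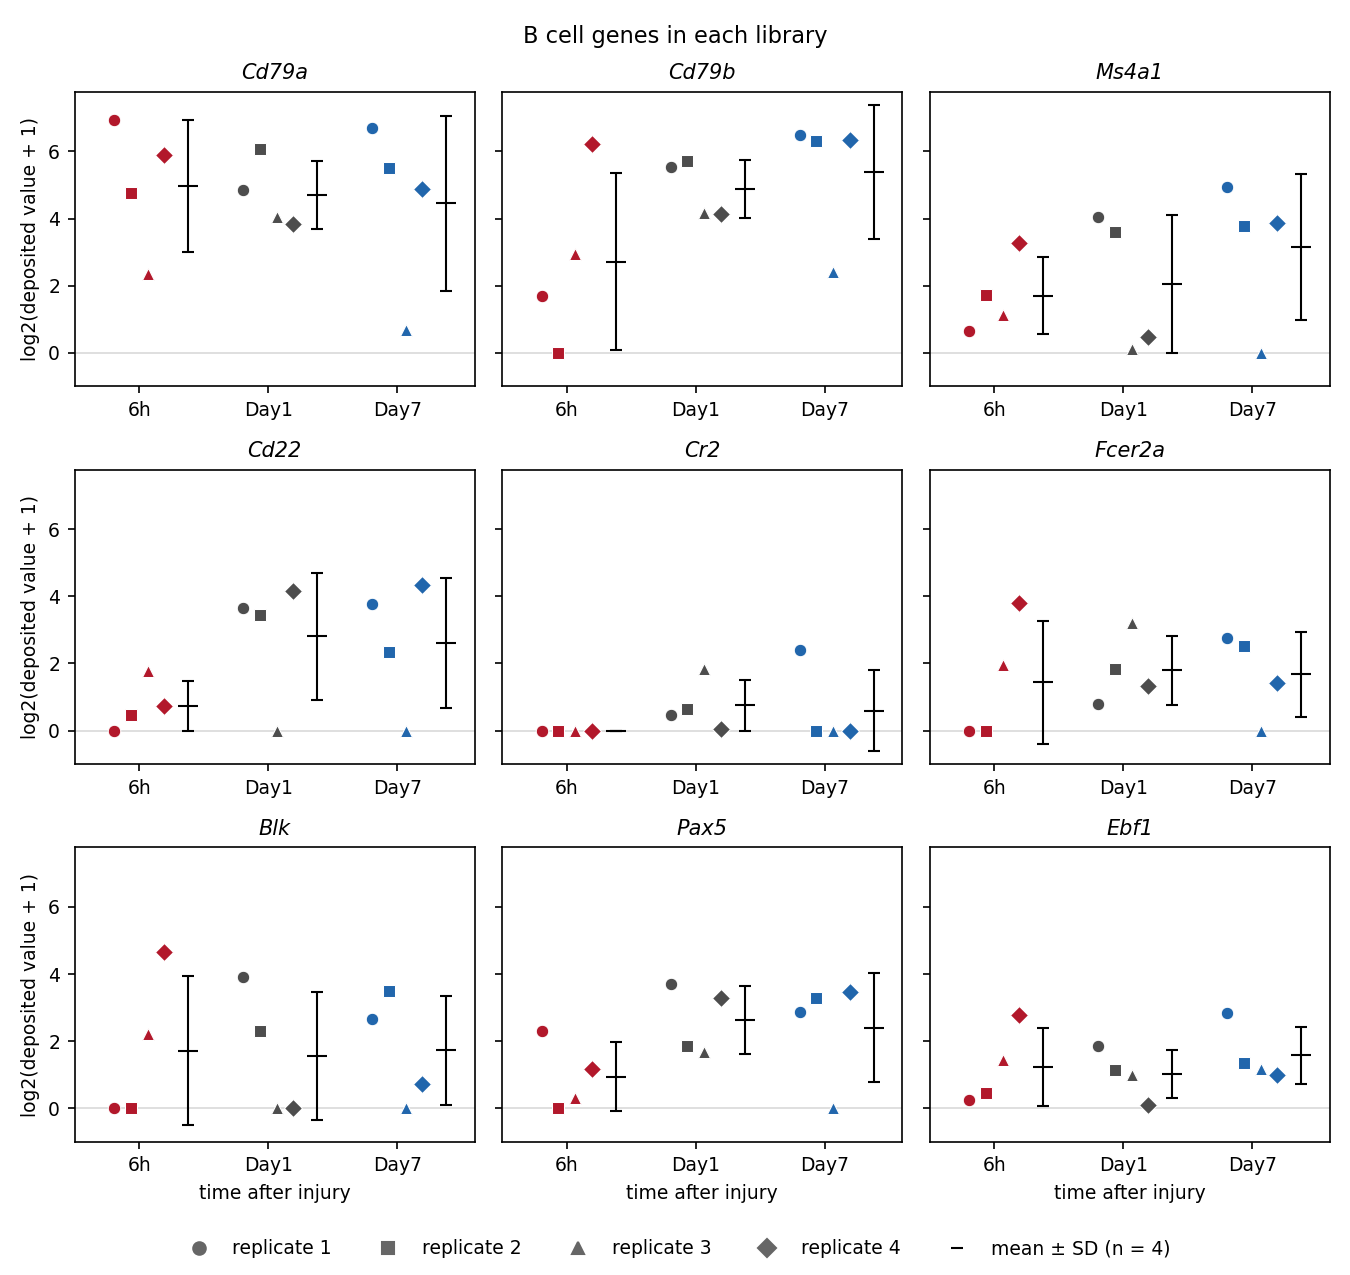
Each panel plots log2(deposited value + 1) of a B cell gene in the 4 libraries of 6h, Day1 and Day7, with a symbol for each replicate number and the group mean ± SD (n = 4) beside the points. For Cd79b the mean log2 value is 2.72 at 6h, 4.89 at Day1 and 5.39 at Day7, and in most panels Day7 replicate 3 is the lowest Day7 library.

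None of the 8 tested B cell genes passed the test between any pair of times, and the spread within each time was wide. In limma, adjusted by Benjamini-Hochberg over all genes tested at a threshold of 0.05, 0 of 8 tested genes changed in Day1 versus 6h, where 0.169% of 11211 genes were called. The count was 0 of 8 in Day7 versus Day1 (5.78% of all genes called), 0 of 8 in Day7 versus 6h (0.883%) and 0 of 8 in the F test for any difference among the 3 times (2.55%). At an unadjusted p under 0.05, limma counted 0, 0 and 1 of the 8 in the 3 comparisons and 1 in the F test, where 11.2%, 29.1%, 18.0% and 25.5% of all genes lay under that p. On the recovered whole reads, edgeR's quasi-likelihood test called 0 of 8 in each of the 3 comparisons, beside 0.0803%, 0.00892% and 0.749% of all genes, and DESeq2 called 0 of 8 beside 1.76%, 15.8% and 9.59%. Unadjusted, edgeR counted 0 in each (6.65%, 21.3% and 15.4% of all genes), and DESeq2 counted 1, 0 and 0 (9.38%, 30.8% and 23.0%). As a description, the median log2 fold change of these 8 was 0.36 in Day1 versus 6h, 0.03 in Day7 versus Day1 and 0.90 in Day7 versus 6h, beside 0.52, -0.48 and 0.13 over all genes. These medians moved with the scaling. Per read outside haemoglobin they were 0.94, -1.12 and 0.43, beside 1.24, -1.62 and -0.34 over all genes, and per read of any kind 1.16, -1.31 and 0.54, beside 1.59, -1.81 and -0.20. With 1 library left out, the Day7 versus 6h median ran from 0.40 (without Day7 replicate 1) to 1.53 (without Day7 replicate 3). Cr2 was not tested, because too few libraries reached a value of 1.

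Cd79b came nearest to the threshold. It averaged 62.8 ± 39.3 at Day7 and 20.7 ± 35.4 at 6h (SD, n = 4 each), a log2 fold change of 2.67 (SE 1.09, 95% interval 0.43 to 4.91, limma adjusted p = 0.196). At Day1 it averaged 32.8 ± 18.7 (SD, n = 4), a log2 fold change of 2.17 against 6h (SE 1.09, limma adjusted p = 0.454). Without 6h replicate 4, the one high 6h library, the Day7 versus 6h difference was 3.84 and passed (limma adjusted p = 0.0220), and with array weights it was 3.39 and also passed (limma adjusted p = 0.0289). In those fits 6.18% and 7.23% of all genes were called. It passed in those 2 of 27 alternatives, and over all of them its adjusted p ran from 0.0220 to 0.711 and its log2 fold change from 1.40 to 3.84.

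For Cd79a the difference was smaller and of the other sign. It averaged 44.3 ± 43.4 at Day7 and 52.4 ± 50.7 at 6h (SD, n = 4 each), with a log2 fold change of -0.53 (SE 1.09, 95% interval -2.77 to 1.70, limma adjusted p = 0.827). Its Day1 mean was 30.7 ± 24.3 (SD, n = 4). The intervals of both comparisons with 6h span more than a 2-fold change in either direction, so these libraries set only wide bounds. The Cd79a difference stayed negative under each of 4 scalings (as deposited, by median of ratios, per read outside haemoglobin and per read of any kind), and it was positive with array weights (1.14), without 6h replicate 1 (0.11) and without Day7 replicate 3 (0.72). The Day7 versus 6h differences of Fcer2a, Blk and Ebf1 turned sign with the scaling.

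**Figure D2:**
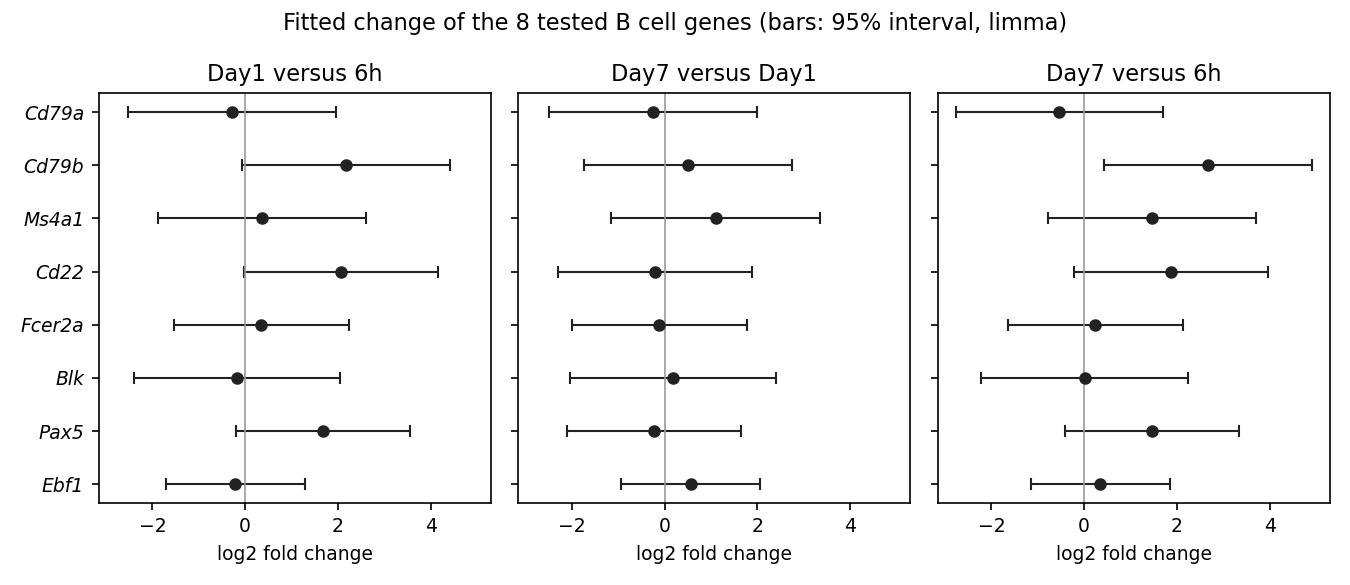
Points are limma log2 fold changes on the log2(value + 1) scale of the 8 tested B cell genes in Day1 versus 6h, Day7 versus Day1 and Day7 versus 6h, later time over earlier, and bars are 95% intervals. Every interval includes 0 except that of Cd79b in Day7 versus 6h, which runs from 0.43 to 4.91 and whose adjusted p is 0.196.

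The genes of the surface proteins were lower per kilobase than those of the receptor chains. Ms4a1, the B cell antigen CD20, had values of 0.560, 2.27, 1.21 and 8.75 in 6h replicates 1 to 4, 15.6, 11.1, 0.0758 and 0.389 in Day1 replicates 1 to 4, and 29.9, 12.8, 0 and 13.6 in Day7 replicates 1 to 4. In 3 of 4 Day7 libraries the deposited Ms4a1 value was above every 6h library, and at Day1 a pair of libraries was high and a pair near 0. Taken as a share of all reads of a library, only Day7 replicate 1 was above 6h replicate 4. They had 434 Ms4a1 reads in 10503804 and 146 in 12379041, and Day7 replicates 2 and 4 had 67 in 8617538 and 41 in 9089586. Ms4a1 averaged 14.1 ± 12.2 at Day7 and 3.20 ± 3.77 at 6h (SD, n = 4 each), a log2 fold change of 1.46 (SE 1.09, limma adjusted p = 0.492).

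Cd22, a sialic acid-binding inhibitor of receptor signalling, had values of 0, 0.379, 2.41 and 0.659 in 6h replicates 1 to 4, 11.6, 9.83, 0 and 16.8 in Day1 replicates 1 to 4, and 12.6, 4.02, 0 and 19.3 in Day7 replicates 1 to 4. The 6h libraries were all low, and 3 of 4 libraries at each later time were above all of them, while Day1 replicate 3 and Day7 replicate 3 had no read. Cd22 averaged 9.56 ± 7.02 at Day1 and 0.863 ± 1.07 at 6h (SD, n = 4 each), a log2 fold change of 2.07 (SE 1.01, 95% interval -0.02 to 4.16, limma adjusted p = 0.451). Day7 averaged 8.97 ± 8.65 (SD, n = 4), a log2 fold change of 1.87 against 6h (SE 1.01, limma adjusted p = 0.337).

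Cr2, the complement receptor CD21 of mature B cells and follicular dendritic cells, had 0 reads in all 4 libraries at 6h. Day1 replicates 1 to 4 had 3, 18, 34 and 1 reads, and Day7 replicate 1 had 62 while the other 3 Day7 libraries had none. The Day1 libraries were thus above all 6h libraries, though 1 of them by a single read. Each Day1 library also had more genes with a read than any 6h library (12776 to 16647 against 7631 to 11708). The share of all genes that separate these groups in the same way was not counted, so the separation is not read as a result about Cr2. Against a floor of 3 reads over the 6h group, the pooled Day1 reads of Cr2 gave a fold of 6.83. It was 2.88 without 6h replicate 4 and 3.22 without Day1 replicate 3. These folds take the 56 Day1 reads as exact, 34 of them from Day1 replicate 3, and do not bound a difference between times. No fold is given for Day7, where 1 library held every read.

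Fcer2a, the low-affinity IgE receptor CD23 of naive follicular B cells, had values of 0, 0, 2.90 and 12.9 in 6h replicates 1 to 4, 0.742, 2.54, 8.27 and 1.52 in Day1 replicates 1 to 4, and 5.78, 4.79, 0 and 1.66 in Day7 replicates 1 to 4. The groups overlapped throughout. Its linear mean was lower at Day1 (3.27 ± 3.41) than at 6h (3.96 ± 6.14; SD, n = 4 each), whereas the log2 fold change was 0.35 (SE 0.92, limma adjusted p = 0.912), with 6h replicate 4 alone at 12.9 in the 6h mean.

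The kinase and the transcription factors completed the set. Blk, a Src-family kinase of the B lineage, had 0 reads in 5 libraries (6h replicates 1 and 2, Day1 replicates 3 and 4, Day7 replicate 3) and its highest value, 24.4, in 6h replicate 4. It averaged 4.09 ± 4.80 at Day7 and 7.004 ± 11.7 at 6h (SD, n = 4 each), and its log2 fold change was 0.01 (SE 1.08, 95% interval -2.21 to 2.23, limma adjusted p = 0.998). Each group held libraries with and without Blk reads.

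Pax5 had values of 3.92, 0, 0.241 and 1.26 in 6h replicates 1 to 4, 12, 2.61, 2.20 and 8.68 in Day1 replicates 1 to 4, and 6.26, 8.80, 0 and 9.98 in Day7 replicates 1 to 4. As for Cd22, the later libraries other than Day7 replicate 3 were mostly higher, but 6h replicate 1 lay within their range. Pax5 averaged 6.26 ± 4.45 at Day7 and 1.36 ± 1.80 at 6h (SD, n = 4 each), a log2 fold change of 1.46 (SE 0.91, limma adjusted p = 0.403). For Day1, with a mean of 6.37 ± 4.78 (SD, n = 4), the log2 fold change against 6h was 1.68 (SE 0.91, limma adjusted p = 0.490).

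Ebf1 was low everywhere, with 285 reads in all, and had its highest values in Day7 replicate 1 (6.12) and 6h replicate 4 (5.93). It averaged 2.47 ± 2.44 at Day7, 1.22 ± 1.04 at Day1 and 2.05 ± 2.68 at 6h (SD, n = 4 each), with a log2 fold change of 0.35 for Day7 versus 6h (SE 0.73, limma adjusted p = 0.831). Ebf1 is also expressed by mesenchymal and fat cells. Its Pearson correlation with the 9 tested mesenchymal and fibroblast markers over the 12 libraries, which share depth and haemoglobin content, ran from -0.10 for Thy1 to 0.44 for Lum, given as a description. The 5 genes most like Ebf1 across the 12 libraries were Gyg (r = 0.86), Dnajb5 (0.85), Stab1 (0.84), Gramd1c (0.84) and Furin (0.83).

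Whether strand was used in counting is not stated, and without strand reads of a gene and its antisense partner cannot be told apart. In the table, the antisense genes over Pax5 (Gm12462) and Ebf1 (Gm12158) had 5 and 15 reads in all libraries, and that over Ms4a1 (4930526L06Rik) had 0.

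Levels of different genes were compared per kilobase of the length given in the table. Over the 12 libraries the mean value per kilobase was 29.3 for Cd79a, 19.5 for Cd79b, 2.11 for Ms4a1, 2.11 for Blk, 1.33 for Pax5, 1.16 for Cd22, 1.15 for Fcer2a, 0.193 for Ebf1 and 0.0891 for Cr2. Between neighbours in this order, Cd79b was above Ms4a1 in 11 of 12 libraries (exact sign-flip permutation test on the paired differences, two-sided, adjusted over 8 neighbour pairs, p = 0.00781) and Fcer2a was above Ebf1 in 8 of 12 (same exact test, adjusted p = 0.0312). The other 6 neighbour pairs did not pass, including Cd79a over Cd79b (higher in 7 of 12 libraries, exact adjusted p = 0.489). The order was taken from the same values, so the p-values do not allow for that choice, and only neighbours were tested. By mean value per kilobase the receptor chains lay above the other 7 genes, and Ebf1 and Cr2 lay lowest.

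The make-up of the B cell gene reads differed between libraries by more than counting error. In 9 of the 12 libraries Cd79a took 26.1% to 55.9% of the reads of both receptor chains. In 6h replicate 1 it took 98.2% (646 of 658 reads, exact Clopper-Pearson 95% interval 96.8% to 99.1%) and in 6h replicate 2 100% (69 of 69 reads, 94.8% to 100%). These intervals take reads as independent and cover counting error only. Of all libraries 6h replicate 1 had the fewest genes with a read, 7631, next to 7635 in Day7 replicate 3 and 10581 to 16647 in the other 10, and the part of this in its make-up was not tested. The opposite was seen in Day7 replicate 3, with 1 read of Cd79a and 7 of Cd79b, where the interval of 0.316% to 52.7% includes most of the other libraries. Of the reads of all 9 genes, Cd79a took 94.6% in 6h replicate 1, where Cd22, Cr2, Fcer2a and Blk had no read.

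**Figure D3:**
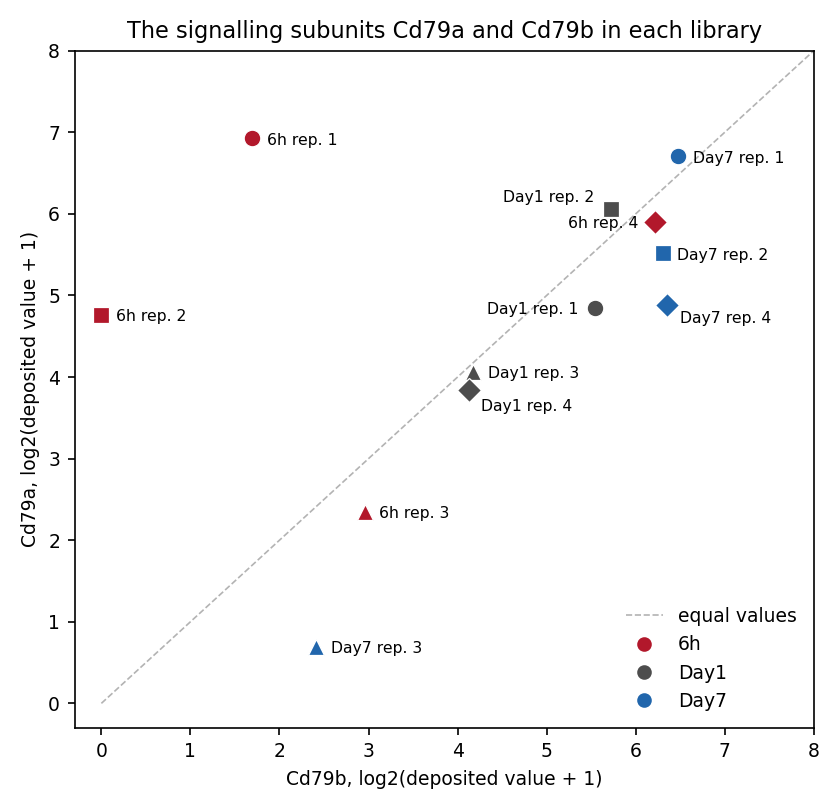
Each point is a library, with the log2(deposited value + 1) of Cd79b on the x axis and of Cd79a on the y axis, and the dashed line marks equal values. Most libraries lie near the line, while 6h replicate 1 and 6h replicate 2 lie far above it, with Cd79a at 121 and 26.1 and Cd79b at 2.24 and 0.

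**Figure D4:**
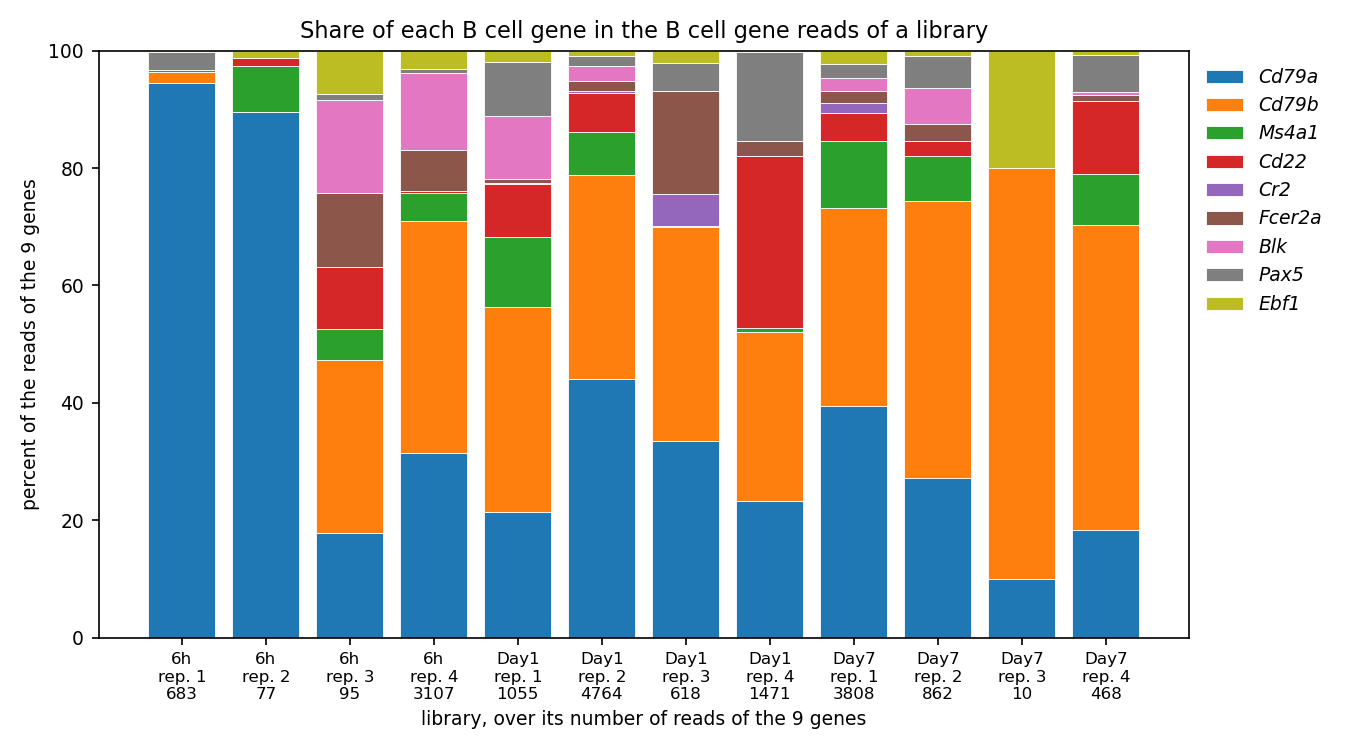
Bars split the reads of the 9 B cell genes in each library by gene, in percent, with the number of such reads under each bar. Cd79a fills 94.6% of the bar of 6h replicate 1 and 89.6% of that of 6h replicate 2, Cd22 fills 29.3% in Day1 replicate 4, and the bar of Day7 replicate 3 rests on 10 reads.

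Other libraries also leaned on single genes. In Day1 replicate 4 Cd22 took 29.3% and Pax5 15.2% of the B cell gene reads while Ms4a1 took 0.680%, and in Day1 replicate 3 Fcer2a took 17.6% and Cr2 5.50% while Cd22 and Blk had none. All 9 genes were detected in Day1 replicates 1 and 2 and in Day7 replicate 1. With bulk RNA, fewer B cells and less RNA per cell cannot be told apart.

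Across libraries the B cell genes varied together in part. All 28 pairs of the 8 tested genes had a positive Pearson correlation of log2 values over the 12 libraries, with a median of 0.54 and a range of 0.05 (Pax5 with Ebf1) to 0.80 (Blk with Ebf1). Blk with Ebf1 was the only pair that passed after adjustment over the 28 pairs (Pearson r = 0.80, permutation p = 0.0014, adjusted p = 0.0386; Spearman rho = 0.83, permutation p = 0.0017, adjusted p = 0.0484). Without the 2 libraries farthest from the median of Blk, 6h replicate 4 and Day1 replicate 1, r was 0.69. Within the 7 libraries that lack Y-linked reads r was 0.70 and rho 0.78, and the 5 with them are too few for a value. Cd79a with Cd79b reached only r = 0.37 (permutation p = 0.24, adjusted p = 0.393; rho = 0.45, permutation p = 0.15, adjusted p = 0.261), 0.13 without 6h replicate 3 and Day7 replicate 3, and 0.61 without 6h replicate 1. Libraries share depth and haemoglobin content within themselves, and their part in these correlations was not tested.

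Among the 10 other genes whose log2 values were most like the mean of the tested B cell genes over the 12 libraries were Wdfy1 (r = 0.94), Lsp1 (0.93), Cln6 (0.91), Phf21a (0.91), Stab1 (0.91), Gm9796 (0.90), Rap1gap2 (0.90), Ankib1 (0.89) and Rnf165 (0.88). Lsp1, a leukocyte actin-binding protein, had a mean value of 42.2. The 5 most like Cd79a were Erp29 (0.89), Cdc26 (0.89), Cdc42se1 (0.87), Gm17251 (0.86) and Trappc5 (0.86), a different set.

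The wider B lineage lists showed few changes. Of 16 tested surface and identity genes beside the 9, 0 changed in Day1 versus 6h and in Day7 versus 6h (1 and 2 at an unadjusted p under 0.05 in limma, beside 11.2% and 18.0% of all genes). In limma 1 gene of the 16 fell in Day7 versus Day1, beside 5.78% of all genes called there in either direction. That gene was Cd200, a surface glycoprotein that other cell types carry as well, with values of 2.61, 1.15, 0 and 1.66 in Day7 replicates 1 to 4 and 16.4, 33.5, 37.3 and 42.8 in Day1 replicates 1 to 4. The Cd200 groups did not overlap, and the share of all genes whose Day1 and Day7 groups do not overlap was not counted. The log2 fold change of Cd200 was -3.89 (SE 0.81, limma adjusted p = 0.0170). The call was kept in 20 of 27 alternatives and was lost when Y-linked reads entered as a term (limma adjusted p = 0.172), with edgeR (adjusted p = 0.110) and in 5 of the 12 fits that leave out a library: Day1 replicates 2, 3 or 4, or Day7 replicates 2 or 3. Over the list the median log2 fold change was 1.09 in Day1 versus 6h, -0.07 in Day7 versus Day1 and 0.68 in Day7 versus 6h, beside 0.52, -0.48 and 0.13 over all genes. Per read outside haemoglobin and per read of any kind it was 1.61 and 1.91, -0.89 and -0.97, and 0.06 and 0.24 in these comparisons.

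Among the surface and identity genes with the highest values, not scaled to length, were Ly6d, Cd37, Siglecg and Ralgps2, and none of these 4 passed in any comparison.

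Of 15 tested B lineage transcription factors beside Pax5 and Ebf1, 0 changed in any comparison (3, 4 and 3 at an unadjusted p under 0.05 in limma for Day1 versus 6h, Day7 versus Day1 and Day7 versus 6h, beside 11.2%, 29.1% and 18.0% of all genes). All 15 had a positive log2 fold change in Day1 versus 6h under each of 4 scalings, where 69.1% to 92.8% of all genes were positive. Their median there was 0.96 as deposited, beside 0.52 over all genes, and 1.64 and 2.01 per read outside haemoglobin and per read of any kind, beside 1.24 and 1.59. In Day7 versus Day1 the count depended on the scaling: 6 of 15 fell per read outside haemoglobin and 7 of 15 per read of any kind, near the 33.6% and 35.2% of all genes that fell there. Tcf4, which also drives plasmacytoid dendritic cells, had the lowest adjusted p of those named, in Day7 versus Day1 (log2 fold change -2.93, SE 0.91, limma adjusted p = 0.0529). Irf8, shared with myeloid and dendritic cells, had a log2 fold change of -2.46 there (SE 1.18, limma adjusted p = 0.169). Siglech, a marker of plasmacytoid dendritic cells, fell in the same comparison (log2 fold change -4.54, SE 1.17, limma adjusted p = 0.0328), with values of 0.344, 0.191, 0 and 8.65 in Day7 replicates 1 to 4 and 185, 11.96, 34.9 and 51.7 in Day1 replicates 1 to 4. Of 8 plasmacytoid dendritic cell markers, 3 to 6 were detected per library at Day7 and 6 to 8 at Day1, and their summed value was 21.2 to 117 at Day7 and 92.8 to 349.5 at Day1. Their part in the Tcf4 and Irf8 values was not tested. The Siglech call was lost in 9 of 27 alternatives, among them the term for Y-linked reads (limma adjusted p = 0.127), edgeR (adjusted p = 0.116) and leaving out any Day1 library or Day7 replicate 2 or 3. These 9 include the fit without the filter on low values (limma adjusted p = 0.127). Outside Day1, Siglech reached a value of 1 only in 6h replicates 1 and 3 and Day7 replicate 4. It thus passed that filter only through Day1, where it was high.

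Of 19 tested receptor signalling genes, 0 changed (3, 4 and 5 at an unadjusted p under 0.05 in limma, in the same order of comparisons, beside the same shares of all genes). With array weights 6 of 19 were called in Day7 versus Day1, beside 24.8% of all genes, and 5 of 19 in Day7 versus 6h, beside 7.23%. In Day7 versus 6h 18 of 19 had a positive log2 fold change (17 or 18 under each of 4 scalings), beside 38.2% to 53.8% of all genes. Their median was 1.26 as deposited, beside 0.13 over all genes, and 0.58 and 0.69 per read outside haemoglobin and per read of any kind, beside -0.34 and -0.20. Lyn, a Src-family kinase, had a log2 fold change of 3.46 (SE 1.04, limma adjusted p = 0.0881), and Syk, the kinase recruited to the receptor chains, one of 2.85 (SE 0.93, limma adjusted p = 0.108). Both kinases are also used by platelets and myeloid cells, whose markers had higher median summed values at Day7 too, as deposited and with overlapping groups. The summed value of 8 platelet and megakaryocyte markers was 24042 to 41387 at Day7 and 192 to 26430 at 6h, and that of the neutrophil markers 101.4 to 747 at Day7 and 4.59 to 166 at 6h. As a share of all reads the platelet markers were higher in 6h replicate 4 than in any Day7 library. They had 440909 reads in 12379041 there and 349491 in 10503804 in Day7 replicate 1, the highest of Day7. Of the 8 platelet markers all 8 were detected in each Day7 library and 7 or 8 in 6h libraries, and of 10 neutrophil markers 6 to 9 at Day7 and 2 to 9 at 6h, with Ly6g at 0 in both groups. Their part in the signalling genes was not tested.

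Immunoglobulin genes, which B cells and plasma cells transcribe, showed 0 changes among 6 tested (0 in each comparison at an unadjusted p under 0.05 in limma), and 1 library stood far above the others. Ighm, the mu heavy chain, had values of 1240, 3.03, 43.7 and 139 in 6h replicates 1 to 4, 226, 108, 50.0 and 139 in Day1 replicates 1 to 4, and 239, 106, 57.4 and 100 in Day7 replicates 1 to 4. Igkc, the kappa light chain, was 1633 in 6h replicate 1, 3.79 in 6h replicate 2 and 41.3 to 239 in the other 10 libraries. Ighg2b, a switched heavy chain, was 363 in 6h replicate 1 and at most 3.08 elsewhere.

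In 6h replicate 1 the joining chain gene Igj, at 182, and Dntt, the DNA polymerase of receptor gene rearrangement in precursors, at 127, were also the highest of all libraries. Outside it Igj reached at most 9.87 and Dntt at most 3.30. Vpreb1, a surrogate light chain of pre-B cells, had a value of 14.6 in 6h replicate 1, 0.371 in Day1 replicate 1 and 0 in the other 10. Of 11 pre-B cell genes, 7 were detected in 6h replicate 1, as many as in Day1 replicate 1. In 6h replicate 1 Vpreb2, Igll1, Rag2 and Erg had no read. This library thus combined many immunoglobulin and Cd79a reads with 12 reads of Cd79b and none of Cd22, Fcer2a and Blk. T cell markers were high in it as well, with a summed value of 2211 and 21 of 23 markers detected, against sums of 16.4 to 341 in the other 11 libraries.

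**Figure D5:**
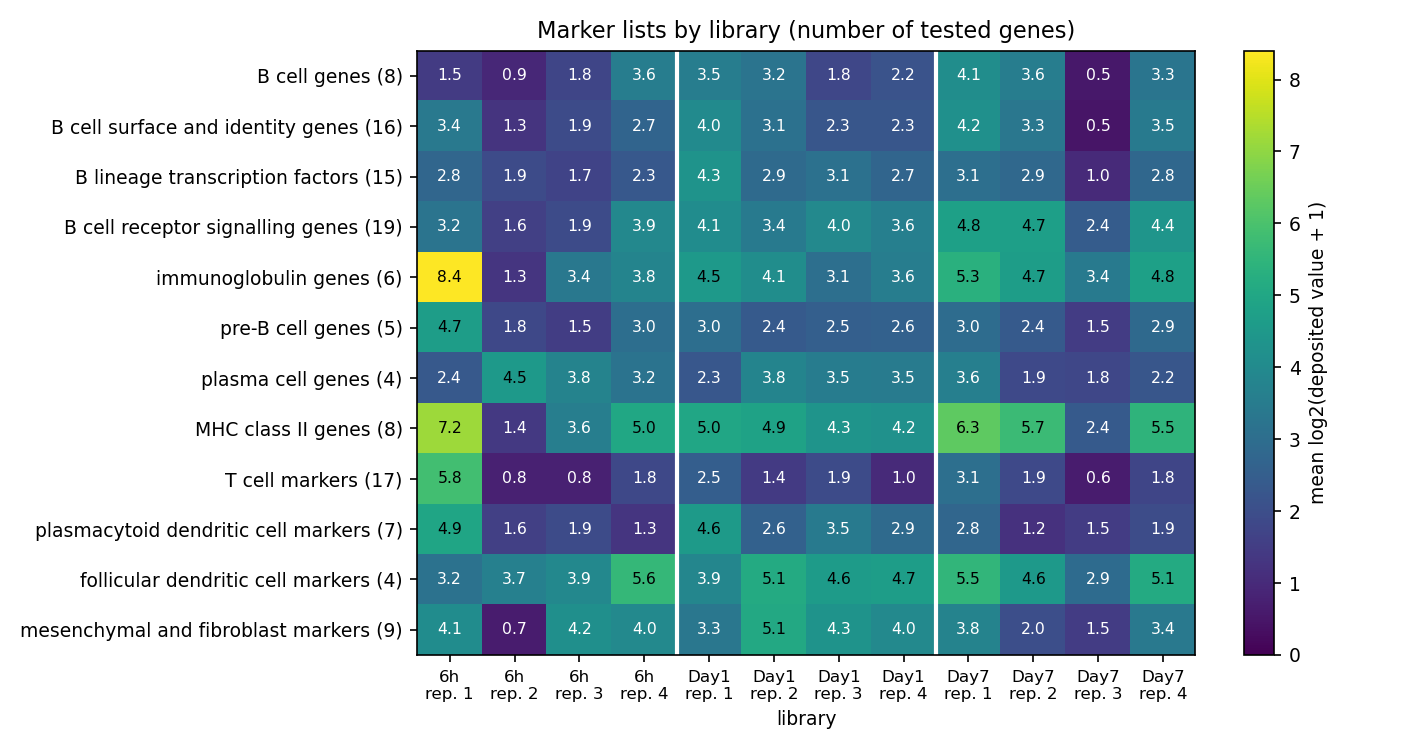
The heat map gives the mean log2(deposited value + 1) over the tested genes of each marker list (rows, number of genes in brackets) in each library (columns). In 6h replicate 1 the immunoglobulin list stands at 8.40 and the MHC class II list at 7.16 while the B cell genes stand at 1.48, and Day7 replicate 3 has the lowest value of the Day7 libraries in each of the 8 B lineage rows.

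Segments that encode the variable part of antibodies, counted after the values of Ighm and Igkc had been seen, were spread over many genes in some libraries and few in others. Igkv segments had 4019 reads over 34 of 103 genes in 6h replicate 1, where the most abundant, Igkv8-27, took 13.9%. In 6h replicate 2 they had 5 reads, and the other libraries had 150 to 1712 over 7 to 62 genes. Ighv segments had 1281 reads over 28 of 113 genes in 6h replicate 1 and none in 6h replicate 2. In the other 10 libraries they had 13 to 331 reads over 4 to 43 genes, with 289 reads over 5 genes in Day1 replicate 4 and 168 over 5 in 6h replicate 4, where 1 gene took 53.6%. Day7 replicate 3, with 10 reads of the 9 B cell genes, still had 161 Igkv reads over 7 genes, of which Igkv15-103 took 44.7%.

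Of 5 tested pre-B cell genes 0 changed (0, 0 and 1 at an unadjusted p under 0.05 in limma, beside 11.2%, 29.1% and 18.0% of all genes). Among 4 tested plasma cell genes 1 fell in Day7 versus Day1, where 5.78% of all genes were called in either direction. This was Derl3, an endoplasmic reticulum degradation factor, with 0 reads in all 4 Day7 libraries and values of 1.11, 1.92, 7.43 and 12.9 in Day1 replicates 1 to 4 (limma adjusted p = 0.0492). Outside Day1 it reached a value of 1 only in 6h replicate 3. Derl3 thus passed the filter on low values only through Day1, where it was high. Without the filter it was not called (limma adjusted p = 0.136). The Derl3 call was lost in 12 of 26 alternatives, among them the term for Y-linked reads (limma adjusted p = 0.415), edgeR (adjusted p = 0.112) and leaving out any Day7 library or Day1 replicate 2, 3 or 4. Sdc1, the plasma cell surface proteoglycan also made by epithelium, had its highest value, 174, in 6h replicate 2, the library with 5 Igkv reads.

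Of 8 tested MHC class II genes, which B cells share with other antigen-presenting cells, 0 changed (1, 0 and 0 at an unadjusted p under 0.05 in limma, beside those shares of all genes). Cd74, the invariant chain, had values of 3942, 18.2, 181 and 445 in 6h replicates 1 to 4, 226, 309, 202 and 182 in Day1 replicates 1 to 4, and 1252, 605, 41.3 and 500 in Day7 replicates 1 to 4. The 6h libraries spanned both the highest and the lowest of the 12, which leaves the time groups overlapping.

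Markers of other cells gave the setting of these values. Follicular dendritic cells, which also carry Cr2, had 0 reads of the marker Madcam1 in all 12 libraries. Of 5 such markers 1 to 4 were detected per library, and the summed value ranged between 332 and 3452 in 6h, 282 and 1057 in Day1 and 2014 and 4308 in Day7 libraries, most of it from Clu, which platelets also express. All 6 genes of the list shared by leukocytes were detected in 10 of 12 libraries and 5 of 6 in 6h replicates 2 and 3. The mesenchymal and fibroblast markers had a summed value between 12.5 and 1462 in 6h, 332 and 1915 in Day1 and 56.1 and 621 in Day7 libraries, and of the defining receptors Pdgfra had no read in 7 libraries and Pdgfrb none in 7.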

How the data were processed

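RNA of iChip-sorted blood was sequenced in 12 libraries, 4 each at 6h, Day1 and Day7, grouped by the sample titles. The submitters' processing notes name STAR 2.7.10, HTSeq 2.0.1 and mm9, but no annotation or scaling step. The deposited table, named CPM, holds a signal per gene that the authors scaled per library: within a column every value is a whole number of reads times a constant (100% within 0.001 reads). Column sums run from 351981 to 5611145, so the values are not plain CPM. Recovered totals set the depth (5098395 to 12379041 reads). The planned test for a normalized table was kept.

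In the main test, limma 3.58.1 (R 4.3.3, trend option) modelled log2(value + 1) by time over the 12 libraries, for the 11211 genes that reached a value of 1 in 4 or more of them. This scale understates changes of low genes. P-values were adjusted by Benjamini-Hochberg over all genes tested, and intervals are 95%. Alternatives were pseudocounts of 4 and 0.25, a filter on a mean of 10 or none, other scalings, array weights, fits of 2 groups, a replicate block, a Y-linked term, libraries left out, and edgeR 4.0.16 and DESeq2 1.42.0 on recovered reads. Scripts were tested on simulated data. Pair correlations used 100000 permutations.

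The genes and lists were chosen with earlier results of these data known. Named are all 9 B cell genes, the up to 6 most abundant and every changed gene of the B lineage lists, the up to 3 most abundant of other lists, and the genes most correlated with their mean, Ebf1 or Cd79a. Some genes that this rule names are not reported here. V segments, subunit shares, and correlations without 6h replicate 1 or among libraries without Y-linked reads were added after the data were seen.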

Additional observations from a re-analysis of the deposited data

Results flagged for a closer look

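Cd79b in Day7 replicate 3 lay far below the other 3 Day7 libraries, at 2.41 on the log2(value + 1) scale against 6.30 to 6.48, and the gap took 0.956 of the range of the group. Cr2 in Day7 replicate 1 lay above the other 3, at 2.40 on that scale against 0 in each of them. The mean log2 level of the B lineage transcription factors other than Pax5 and Ebf1 was 1.01 in Day7 replicate 3, against 2.82 to 3.08 in the other Day7 libraries. Each gap exceeded the 95% critical value of Dixon's test for 4 samples. For Cr2 that outcome was fixed in advance. With 0 in the other 3 libraries the gap is the whole range at any value of Day7 replicate 1. Chance flags about 1 in 20 groups, and 3 of 48 groups were flagged.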

How the results depend on the processing

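With 4 libraries a group, 95% intervals of single genes spanned several log2 units, so only large differences were detectable. The number of B cell genes that changed was 0 in each alternative except for Cd79b. With array weights 1 gene changed in Day7 versus 6h and 1 among the 3 times, and with libraries left out these counts ranged from 0 to 1 (1 without 6h replicate 4). Deviations of same-numbered libraries correlated at -0.23 to 0.12 over 12 pairs, 1 of them above 0.1. Such correlations cannot settle whether replicate numbers pair the libraries. With the replicate block 0 of 8 B cell genes changed in each comparison, while over all genes the count was 45 instead of 19 in Day1 versus 6h and 156 instead of 99 in Day7 versus 6h, and 1 of 12 libraries correlated best with its own number. Of the other B lineage lists, the count that changed reached 7 transcription factors, 6 signalling genes, 3 surface genes and 3 plasma cell genes in Day7 versus Day1 in single alternatives, namely array weights (24.8% of all genes called) and scaling per read outside haemoglobin or of any kind (33.8% and 35.3%), and at most 5 of any list in the other comparisons. TMM scaling returned the deposited fit, so 4 scalings differ. The median over all genes moved with the scaling. Per read outside haemoglobin it was 1.24 for Day1 versus 6h and -1.62 for Day7 versus Day1, per read of any kind 1.59 and -1.81, and as deposited 0.52 and -0.48.

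Log2 fold changes of B cell genes that turned sign, none of which passed the test, were as follows, and the cause was not tested. For Day1 versus 6h, Cd79a was 0.57 scaled to non-haemoglobin reads, 1.02 scaled to all reads, 1.02 with array weights and 0.37 without the 2 libraries with the fewest genes (6h replicate 1 and Day7 replicate 3). Fcer2a was -0.20 with a term for Y-linked reads, -0.13 without those 2 libraries, -0.44 in edgeR and -0.13 in DESeq2. Scaled to non-haemoglobin reads and to all reads, Blk was 0.21 and 0.27 and Ebf1 0.25 and 0.35. For Day7 versus Day1, Cd79a was 0.013 with a pseudocount of 4, 0.12 with array weights, 1.00 without the 2 libraries, 0.74 in edgeR and 0.22 in DESeq2. Scaled to non-haemoglobin reads and to all reads, Cd79b was -1.18 and -1.43, Blk -0.50 and -0.46, and Ebf1 -0.36 and -0.34. With array weights and without the 2 libraries, Cd22 was 0.35 and 0.67, Fcer2a 0.11 and 0.44, and Pax5 0.60 and 0.58. Fcer2a was also 1.54 with the Y-linked term and 0.17 in edgeR, Pax5 0.039 in edgeR, and Blk -0.022 with median-of-ratios scaling, -0.017 in edgeR and -0.60 in DESeq2. For Day7 versus 6h, Cd79a was 1.14 with array weights and 1.37 without the 2 libraries. Scaled to non-haemoglobin reads, Fcer2a was -0.10, Blk -0.29 and Ebf1 -0.10, and scaled to all reads Fcer2a was -0.025 and Blk -0.19. In edgeR and DESeq2 Fcer2a was -0.28 and -0.55 and Blk -0.62 and -0.89. Blk was also -0.12 with a pseudocount of 4 and -0.17 with median-of-ratios scaling.

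With libraries left out in turn, the values that turned sign ranged as follows. For Day1 versus 6h these were -1.16 to 0.37 for Cd79a, -0.30 to 1.01 for Ms4a1, -0.13 to 1.14 for Fcer2a, -0.96 to 0.81 for Blk and -0.54 to 0.31 for Ebf1. For Day7 versus Day1 they were -1.01 to 1.00 for Cd79a, -1.14 to 0.67 for Cd22, -0.48 to 0.44 for Fcer2a, -0.41 to 0.96 for Blk and -0.57 to 0.58 for Pax5. For Day7 versus 6h they were -1.41 to 0.72 for Cd79a, -0.24 to 1.02 for Fcer2a, -0.58 to 0.99 for Blk and -0.067 to 0.87 for Ebf1.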
